A study of Homo sapiens with 6 samples.

Results

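KDM3B regions that were called in control HCT116 cells, were no longer called after KDM3A/B depletion and had newly called H3K9me2 next to them numbered 1422. They were chosen by their measured calls. A KDM3B region of HCT116/Scrsh cells was taken when it shared no base with any KDM3B region of HCT116/ABsh-1 cells (lost) and when an H3K9me2 region of HCT116/ABsh-1 cells that shared no base with any H3K9me2 region of HCT116/Scrsh cells (new) lay within 1 kb of either of its edges. These 1422 regions came from 17638 KDM3B regions in HCT116/Scrsh, of which 13102 were lost and 4536 were kept.

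HCT116 is an established human colorectal cancer cell line whose mutant β-catenin keeps Wnt target genes active. HCT116/Scrsh cells carried a scramble shRNA and HCT116/ABsh-1 cells stably carried a shRNA against both KDM3A and KDM3B, so losses of the 2 demethylases cannot be told apart. The labels name the populations Con and KD and speak of siRNA, whereas the methods describe shRNA. KDM3B and H3K9me2 were each profiled by ChIP-seq, in which DNA pulled down by an antibody is sequenced, with 1 library per antibody and population. Without replicates no test between the populations was made, and every value below describes these 4 lists of called regions. The lists give no read numbers, so sequencing depth is unknown here, and a region that is absent from a list may have lain below the calling limit. H3K9me2 regions numbered 11645 before depletion (HCT116/Scrsh) and 88855 after it (HCT116/ABsh-1). The rule therefore draws on an H3K9me2 list in which 84881 regions, or 95.5%, were new, and on a KDM3B list in which 74.3% of the regions were lost.

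The KDM3 enzymes belong to the JmjC family, which oxidises methyl groups off histone lysines using iron and 2-oxoglutarate, and act on mono- and dimethylated lysine 9 of histone H3. H3K9me2 is laid down mainly by the methyltransferases G9a (EHMT2) and GLP (EHMT1) and is associated with silent chromatin. In the canonical Wnt pathway, β-catenin enters the nucleus, joins TCF/LEF factors on DNA and recruits coactivators, and removal of H3K9me2 at the bound genes is one of the steps linked to activation.

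The sequences of 6 members show what such regions look like. The first 5 were taken from the members with the most new H3K9me2 beside them or inside them, and the AXIN2 region was added because AXIN2, a negative regulator and direct target of Wnt signalling, is a gene the study examined. Each is the whole called region in hg19, read on the plus strand from 5′ to 3′, and capitals mark CpG dinucleotides. The TBC1D16 region lies in an intron, the NOTCH1 region in intron 2, the 2 named intergenic on chromosome 22 outside genes, the CD300A region upstream of that gene and the last in intron 2 of AXIN2.
TBC1D16, chr17:77982301-77982600: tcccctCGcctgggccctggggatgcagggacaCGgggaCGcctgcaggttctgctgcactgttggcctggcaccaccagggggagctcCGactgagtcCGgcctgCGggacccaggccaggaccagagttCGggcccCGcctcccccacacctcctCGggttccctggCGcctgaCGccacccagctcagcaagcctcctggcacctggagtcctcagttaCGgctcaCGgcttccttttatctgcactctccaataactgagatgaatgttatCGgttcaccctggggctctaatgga
NOTCH1, chr9:139422401-139422500: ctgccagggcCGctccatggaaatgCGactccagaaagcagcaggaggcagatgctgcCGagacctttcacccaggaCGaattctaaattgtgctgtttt
Intergenic, chr22:46315501-46315600: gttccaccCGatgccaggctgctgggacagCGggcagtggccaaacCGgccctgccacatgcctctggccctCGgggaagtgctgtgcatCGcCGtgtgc
Intergenic, chr22:20162401-20162500: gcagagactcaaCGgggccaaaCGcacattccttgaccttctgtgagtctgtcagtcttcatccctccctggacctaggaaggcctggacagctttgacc
CD300A, chr17:72461801-72462100: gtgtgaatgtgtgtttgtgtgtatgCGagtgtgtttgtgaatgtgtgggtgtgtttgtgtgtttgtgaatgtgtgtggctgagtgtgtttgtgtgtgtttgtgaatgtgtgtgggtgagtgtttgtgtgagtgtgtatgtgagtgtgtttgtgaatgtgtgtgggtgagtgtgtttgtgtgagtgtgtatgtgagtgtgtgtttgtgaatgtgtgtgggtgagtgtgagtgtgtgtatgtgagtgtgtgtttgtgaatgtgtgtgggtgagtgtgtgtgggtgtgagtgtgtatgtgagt
AXIN2, chr17:63553601-63553700: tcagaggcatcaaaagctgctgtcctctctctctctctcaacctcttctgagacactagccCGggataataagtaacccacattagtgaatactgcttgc

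The TBC1D16 sequence holds 14 CpG in 300 bases at a GC content of 64.7%. The first intergenic sequence holds 6 CpG in 100 bases at a GC content of 69%, and the second holds 2 in 100 bases at 56%. The 100 bases in NOTCH1 hold 4 CpG at a GC content of 54.0%. The CD300A sequence is a run of short GT-rich repeats with 1 CpG in 300 bases, and the AXIN2 sequence has 1 CpG in 100 bases at a GC content of 47.0%. These members ranged from CpG-rich DNA to simple repeats.

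New H3K9me2 was not more frequent beside lost KDM3B regions than beside kept ones. It lay within 1 kb of 10.9% of the lost regions (1422 of 13102, Wilson 95% confidence interval 10.3 to 11.4%), of 12.6% of the kept regions (570 of 4536, 11.6 to 13.6%), and of 11.3% of all KDM3B regions of HCT116/Scrsh (1992 of 17638). KDM3B regions that were called in HCT116/ABsh-1 alone gave 13.7% (479 of 3508, 12.6 to 14.8%). Read the other way, 71.4% of the KDM3B regions beside new H3K9me2 were lost (69.4 to 73.3%), against 74.7% of those with none beside them (74.0 to 75.3%). These intervals reflect counting error alone, as nearby regions are not independent, and the shares were not tested against each other. The same order held at other distances. Within 500 bp the share was 5.23% of lost and 6.42% of kept regions, within 2 kb 18.3% and 22%, and within 5 kb 31.3% and 37.2%. A new H3K9me2 region overlapped 0.481% of the lost (63) and 0.485% of the kept regions (22), shares whose intervals of 0.376 to 0.615% and 0.321 to 0.733% overlap.

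The stretch that KDM3B had occupied was itself low in new H3K9me2. Over all lost regions, new H3K9me2 covered 0.366% of the bases inside the region, 0.542% of the first 100 bp outside its edges, an average of 2.07% between 400 and 1000 bp, and 2.47% between 4 and 5 kb. Kept regions had the same shape, with 0.252% inside and 2.98% at 4 to 5 kb. For regions called in HCT116/ABsh-1 alone the inside value was higher, at 1.57%, beside 3.02% at 4 to 5 kb. Among the members, where the rule fixes the presence of H3K9me2 within 1 kb, it covered 3.30% of the bases inside, 4.99% of the first 100 bp and 19.1% of the bases between 400 and 1000 bp. Beyond the limit set by the rule, at 4 to 5 kb, it still covered 10.3% of the bases around members. The members therefore lay in wider surroundings with more new H3K9me2 than the lost regions as a whole. A choice by nearby new H3K9me2 can itself favour such surroundings, and kept regions beside new H3K9me2 were not profiled separately.

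Within the 1 kb the gaps were spread evenly rather than piled up at the edge. A new H3K9me2 region overlapped 63 members (4.43%) and touched 71 more with no base between them. A gap of 100 bp was found for 105 members, and each further step of 100 bp up to 900 bp held between 138 and 156. The median gap was 500 bp (quartiles 200 and 700 bp). Of the lost regions, 154 lay just inside the limit at 900 bp and 123 just outside it at 1000 bp, so the limit cuts through a smooth distribution. The 3 highest-scoring members just inside it were at chr16:87441201-87441600, chr11:66650101-66650900 in an intron of PC, and chr2:74710101-74710600 across the start of CCDC142, with scores of 139, 112 and 103. The 3 just outside it were upstream of EVPL, in an intron of SEPTIN9 and in intron 1 of EFNA3, with scores of 132, 105 and 101.

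The new H3K9me2 beside a member was usually a single narrow block. Of the members, 1130 (79.5%) had 1 new region within 1 kb, 256 (18.0%) had 2 and 36 (2.53%) had 3 or 4. Both flanks held new H3K9me2 in 248 members (17.4%, 15.6 to 19.5%), against 16% of the kept regions beside new H3K9me2 (13.2 to 19.2%). The nearest new region was 200 bp wide in the median (quartiles 100 and 400 bp), and the bases of new H3K9me2 within 1 kb had a median of 200 and reached 1600. Before depletion few members had H3K9me2 near them. An H3K9me2 region of HCT116/Scrsh lay within 1 kb of 26 members (1.83%, 1.25 to 2.67%) and of 39 of the other lost regions (0.334%, 0.244 to 0.456%), and within 5 kb of 9.70% and 3.06%. Kept regions beside new H3K9me2 had one within 1 kb in 0.877% (0.375 to 2.04%) and within 5 kb in 7.89% (5.95 to 10.4%). For the other kept regions these shares were 0.303% and 3.08%.

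The members themselves were weak calls. Their median score was 17 (quartiles 12 and 32) beside 19 for the other lost regions, 46.5 for the kept regions beside new H3K9me2 and 52 for the other kept regions. The score is a whole number given with each region, whose meaning the sources used here do not name, and it serves only to rank regions of the same list. A single 100-bp window made up 62.1% of the members and 62.6% of the other lost regions, against 31.4% of the kept regions beside new H3K9me2. Absence from the KDM3B list of HCT116/ABsh-1 was also not always a gap in KDM3B. Of the members, 89 (6.26%) touched a KDM3B region of HCT116/ABsh-1 with no base between them, 59 (4.15%) had one nearer than 1 kb but not touching, and 1010 (71.0%) had none within 10 kb. Among the other lost regions these shares were 5.25%, 4.04% and 79.0%.

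Members were richer in GC than the other lost regions. In the 300 bp around the centre the median was 60% (quartiles 54.3 and 64.3%) against 50.7% (44 and 58.3%), and in the surrounding 3 kb it was 56.2% against 46.3%. Kept regions beside new H3K9me2 were alike in this, with 61.0% and 56.1%. The ratio of observed to expected CpG was 0.392 in members and 0.304 in other lost regions, and the share with a GC content of at least 50% and a ratio of at least 0.6 was 21.9% and 21.8%. The share of regions with new H3K9me2 beside them rose with the GC content of the 3 kb. It was 0.712% of lost and 0.768% of kept regions at 40 to 45% GC, 15.8% and 16.5% at 50 to 55%, 30.3% and 32.1% at 55 to 60%, and 42.2% and 49.1% at 60 to 65%. The lost share was the higher at 45 to 50% GC, with 4.84% of lost and 4.32% of kept regions, and at 65% or more, with 49.1% and 48.4%. In each of the 8 GC classes the intervals of lost and kept regions overlapped. GC content also affects how well fragments are amplified and read, and the depth of the libraries by GC content was not tested.

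GC-rich chromosomes held many of the members. Chromosomes 16, 17, 19 and 22 held 557 members, or 39.2%, but 2384 of the lost regions, or 18.2%. On chromosome 22 new H3K9me2 lay beside 33.9% of the lost regions (121 of 357, 29.2 to 39.0%), on chromosome 16 beside 24.2% (20.8 to 28.1%), on chromosome 17 beside 21.8% (19 to 24.8%) and on chromosome 19 beside 19.3% (16.6 to 22.3%). Chromosome 17 had the largest number, 168. The lowest shares were on chromosome X, at 2.35% (7 of 298, 1.14 to 4.77%), and chromosome 4, at 2.99%. The shares of kept regions were also high and low on these chromosomes, with 32.1% on chromosome 22, 20.7% on 16, 17.5% on 17, 21.2% on 19, 6.76% on 4 and 1.67% on X. Chromosome Y stood apart, with 11 of 42 lost regions (26.2%, 15.3 to 41.1%) and 2 of 4 kept regions beside new H3K9me2. New H3K9me2 was sparse there, at 5.31 regions per Mb against 163 on chromosome 22. The 11 members on Y formed 9 loci when those less than 5 kb apart were joined, so these shares rest on few places.

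Members lay closer to genes than the other lost regions. Their centres were within 5 kb of an annotated TSS in 67.8% (964 of 1422, 65.3 to 70.2%), against 53.4% of the other lost regions (52.5 to 54.3%) and 62.6% of the kept regions beside new H3K9me2 (58.6 to 66.5%). The median distance to a TSS was 1942 bp, against 4080 bp. Close to the TSS the difference was small, with 30% of members and 29.1% of the other lost regions within 500 bp. By gene feature, 47.3% of members were intronic and 31.4% intergenic, against 46.1% and 35.2%. Coding exons held 3.94% of members (3.05 to 5.08%) against 2.12% (1.88 to 2.40%), and 5′ UTRs 5.13% (4.10 to 6.41%) against 7.53% (7.07 to 8.03%). Kept regions differed in the same directions. Coding exons held 2.98% of those beside new H3K9me2 (1.87 to 4.72%) against 1.84% of the other kept regions (1.47 to 2.31%). For 5′ UTRs the shares were 3.86% (2.56 to 5.77%) and 6.63% (5.90 to 7.45%).

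Around the TSS, KDM3B centres were the more frequent within 500 bp on either side and new H3K9me2 centres between 500 and 1000 bp. The rule takes H3K9me2 up to 1 kb away and few members overlap it, so part of this displacement follows from the rule, and kept regions showed it too. For the 964 members within 5 kb of a TSS, 260 KDM3B centres fell in the 500 bp upstream of the TSS, where 76 of the nearest new H3K9me2 centres fell. In the first 500 bp downstream the numbers were 167 and 136. Between 500 and 1000 bp they were 54 and 123 upstream, and 75 and 143 downstream. The H3K9me2 centre was the farther from the TSS in 66.7% of the 961 members whose nearest new region had its centre on one side (63.7 to 69.6%), and in 67.4% of the kept regions beside new H3K9me2 (62.4 to 72.1%). Along the direction of transcription, the nearest new H3K9me2 lay downstream of the member in 56.7% (545 of 961, 53.6 to 59.8%), against 49.7% for kept regions beside new H3K9me2 (177 of 356, 44.6 to 54.9%). The intervals of the last 2 shares overlap, and no test of their difference was made.

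Short sequence motifs were counted on both strands in the 300 bp around each centre. A match describes the letters and not a bound factor. The TCF/LEF core CTTTGA was found in 12.9% of members (11.2 to 14.7%), 19.5% of the other lost regions (18.8 to 20.2%) and 18.0% of all KDM3B regions, and in 10.7% of the kept regions beside new H3K9me2 (8.42 to 13.5%). The GC box GGGCGG, read by Sp/KLF factors, was found in 34.0% of members, 22.4% of the other lost regions, 24.3% of all and 38.1% of the kept regions beside new H3K9me2. The core motif of CTCF, an insulator protein, was found in 8.44% (7.10 to 10.0%), 4.45% (4.09 to 4.84%) and 5.25%, and in 10.0% of the kept regions beside new H3K9me2 (7.80 to 12.7%). For these 3 motifs the members thus resembled the kept regions beside new H3K9me2. The AP-1 site TGANTCA was found in 17.5% of members, 18.2% of the other lost regions and 16.5% of all, and in 9.65% of the kept regions beside new H3K9me2 (7.49 to 12.4%) and 12.2% of the other kept regions (11.2 to 13.2%). The E-box CACGTG was found in 8.44%, 6.02% and 6.37%, the ETS core CCGGAAG in 4.78%, 6.51% and 6.23%, and the palindromic NRF1 site in 0.211%, 0.300% and 0.289%. The GC-rich letters of the GC box and the CTCF core go along with the higher GC content of the members. The TCF/LEF core is mostly A and T, and its lower share in members goes along with that content too. The part of GC content in these shares was not tested.

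Of 20163 protein-coding genes, 889 (4.41%) had a member within 5 kb of a TSS, out of 5640 with any lost KDM3B region there. Among the 889 genes, 300 (33.7%) still had a KDM3B region of HCT116/ABsh-1 near a TSS, beside 1614 (28.6%) of the 5640 genes with any lost region. Of the 889, 253 (28.5%) had a further lost region without new H3K9me2 beside it, and 132 (14.8%) had an H3K9me2 region in HCT116/Scrsh. These last 2 shares have no value over all genes with a lost region beside them, so they are not read as traits of the member genes. A single member was the rule, for 812 genes, with 64 genes having 2, 11 having 3, PLEC having 4 and SEPTIN9 having 6. When members less than 5 kb apart were joined, they formed 1348 loci, 1281 of them with 1 member.

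In the 4 lists of Wnt pathway genes, 1 to 3 genes had a member, or 2.94 to 9.38% of a list beside 4.41% of all protein-coding genes. Over all protein-coding genes, 28% had a lost KDM3B region and 47.8% had new H3K9me2 within 5 kb of a TSS. Of the 31 Wnt target genes that the study chose, 18 had a lost KDM3B region, 20 had new H3K9me2 within 5 kb of a TSS and 2, MYC and AXIN2, had a member. MYC, the transcription factor that drives growth, had a member of 1300 bp at chr8:128750201-128751500 across coding exon 2, with a score of 176, and the new H3K9me2 there was a single window of 100 bp inside the member with a score of 18. A KDM3B region of HCT116/ABsh-1 lay 3800 bp away from it. AXIN2, a scaffold of the complex that degrades β-catenin, had 2 members. The first, at chr17:63553601-63553700 in intron 2, had a score of 29 and stood 800 bp from new H3K9me2. The second, at chr17:63554201-63554300 in coding exon 2, had a score of 14 and stood 200 bp from the same block, chr17:63554501-63554800, which had a score of 132 and lay in the coding exon too. No KDM3B region of HCT116/ABsh-1 lay within 5 kb of the second member.

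Of 32 genes that act inside the cell in Wnt signalling, 14 had a lost region and 3 had a member, namely AXIN2, BCL9 and NKD2. BCL9, a coactivator that links β-catenin to Pygopus, had a member of score 11 upstream of its TSS, 900 bp from new H3K9me2. NKD2, an inhibitor that binds Dishevelled, had a member of score 12 in intron 3 that touched new H3K9me2 and had 4 new regions, together 500 bases, within 1 kb. Of 34 Wnt ligands and receptors, 7 had a lost region and only WNT10A, a ligand, had a member. It lay inside the annotated span of the gene but downstream of the transcript used to place it. Of 17 secreted and membrane inhibitors, 4 had a lost region and only KREMEN2, a receptor for DKK proteins, had members, one of them with 1100 bases of new H3K9me2 within 1 kb. Of 18 H3K9 methylation enzymes, 6 had a lost region, 6 had new H3K9me2 and 0 had a member, a count too small to set against the 4.41% of all genes.

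Outside the pathway, 1 of 18 intestinal stem cell genes had a member, SOX9, a transcription factor of the intestinal crypt, with a member of score 15 at its TSS and new H3K9me2 700 bp away. Of 12 genes of H3K4 methyltransferase complexes only KMT2B, a methyltransferase of this group, had one, upstream of the gene. Of 17 apoptosis genes, 3 had a member (17.6%). BBC3 (PUMA) and BIK promote apoptosis and BCL2 blocks it. The BBC3 member, chr19:47729901-47731200 in intron 2, was 1300 bp wide with a score of 184, and 100 bases at its edge were overlapped by new H3K9me2 of score 11. The BIK member had a score of 17, upstream of the gene, with 600 bases of new H3K9me2 within 1 kb, and the BCL2 member had a score of 14 in intron 2, with 100 bases. With 1 to 3 genes per list, these shares are read as counts.

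The 10 members with the highest score had between 100 and 1300 bases of new H3K9me2 within 1 kb, beside a median of 200 over all members. The member of score 261 at chr17:41400501-41401000, in intergenic DNA, was the highest, and a new H3K9me2 region of 1300 bp with a score of 1374 covered it entirely. A KDM3B region of HCT116/ABsh-1 lay 300 bp from it. PLEC, which codes for the cytoskeletal linker plectin, followed with a member of score 211 in intron 4 and 400 bases of new H3K9me2 within 1 kb, and a member downstream of RPL13, a ribosomal protein gene, with a score of 198 and 100 bases. The member in intron 6 of LAMA5, which codes for a laminin chain, had a score of 149 and stood 800 bp from new H3K9me2, and the member upstream of LENG9 had a score of 131 and stood 600 bp away. A KDM3B region of HCT116/ABsh-1 lay 400 bp from the RPL13 member and 200 bp from the LENG9 member. For the PLEC and LAMA5 members the nearest one was 12500 and 76500 bp away.

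The 10 members with the most new H3K9me2 within 1 kb had KDM3B scores from 7 to 261, beside a median of 17 over all members. At the 3′ end of SMIM1, which is linked to the Vel blood group, a member of score 42 was covered whole, and 1600 bases within 1 kb were newly marked. The members upstream of LY6D, in coding exon 11 of SPATA20 and in intron 2 of NOTCH1, the receptor of Notch signalling, had scores of 13, 22 and 15 beside 1600, 1500 and 1300 bases. The SPATA20 member also touched a KDM3B region of HCT116/ABsh-1. At NOTCH1 the new region next to the member was 1700 bp wide with a score of 340. Members in intron 9 of SPNS2, which exports sphingosine 1-phosphate, and in a coding exon of CRYBG2 were likewise covered whole, with scores of 25 and 31. The CD300A member, upstream of a gene for a leukocyte receptor, shared 200 bases with a new region of 1300 bp. An H3K9me2 region of HCT116/Scrsh also overlapped or touched this member. The later H3K9me2 region counted as new because it shared no base with the earlier one.

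Genes with 3 or more members showed them spread along the gene. The 6 members at SEPTIN9, which codes for a filament-forming GTPase, lay in introns 1, 2 and 3 at scores of 8 to 50, and the nearest new H3K9me2 was 0 to 900 bp away. PDGFB, a growth factor, had 3 members in intron 1 with scores of 43, 12 and 37, at 600, 300 and 900 bp from new blocks of 300 and 400 bp, and the nearest KDM3B region of HCT116/ABsh-1 was over 10 kb away from each. TRIOBP, which binds actin, had 1 member upstream of its TSS with a score of 49, beside 700 bases of new H3K9me2, and 2 in intron 11. FDXR, ferredoxin reductase of mitochondria, had 3 members that each stood 700 bp from new H3K9me2. PPP6R2 had 3 upstream, and an H3K9me2 region of HCT116/Scrsh already lay 400 bp from 1 of these.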

How the data were processed

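KDM3B and H3K9me2 were profiled by ChIP-seq in control (HCT116/Scrsh) and KDM3A/B-depleted (HCT116/ABsh-1) cells. The authors mapped reads to hg19 with Bowtie, kept uniquely placed reads, called 100-bp windows over input with a Poisson model and deposited 1 list of regions per ChIP library, each region with its position and a score of at least 2. The 2 input libraries were not analysed here, and read depth is unknown.

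From the lists, overlaps (at least 1 bp), gaps and covered bases were computed with Python 3.11.15, numpy 2.4.6, pandas 2.3.3 and scipy 1.17.1. A gap under 1000 bp counted as within 1 kb. Genes came from GENCODE release 44 (hg19 version), with gene windows of 5 kb around each TSS, and sequence from hg19. Overlap and gap functions were tested on simulated data. Shares carry Wilson 95% intervals, and no test between populations was possible.

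Members and the 8 gene lists (Wnt targets, ligands and receptors, intracellular Wnt genes, Wnt inhibitors, H3K9 enzymes, stem cell, H3K4 complex and apoptosis genes) were chosen with earlier results of these data known. Named regions were the 10 with the highest score, the 10 with the most new H3K9me2, up to 10 overlapped by it, genes with 3 or more members, listed genes, and the 3 regions on each side of the limit, of which examples are given and 1 gene is not reported here. Sequences came from these, outside UTRs and chromosome 8, and were restricted after the data were examined to regions of at most 300 bp. Alternatives changed the flank, list lengths, merging and the definitions of lost and new.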

Additional observations from a re-analysis of the deposited data

How the results depend on the processing

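The number of members followed the length of the flank and of the lists. It was 685 with a flank of 500 bp and 2401 with 2 kb, 383 with the 50% of each list of highest score, 315 with the H3K9me2 lists at equal length and 439 with the KDM3B lists at equal length. The share of lost regions with new H3K9me2 beside them was 5.23%, 18.3%, 6.32%, 2.40% and 9.81% under these 5 alternatives, and that of kept regions 6.42%, 22%, 7.10%, 2.73% and 11.4%. Counting a gap of exactly 1000 bp, an alternative chosen after seeing the data, gave 1545 members and shares of 11.8% and 13.7%. Fewer regions or a shorter flank leave fewer pairs by construction. In all 11 alternatives that gave both shares, the kept share was the higher. Merging regions less than 1 kb apart, stricter definitions of lost and new, a required overlap of 50%, joining members less than 5 kb apart and measuring 1 kb from the centre, also chosen after seeing the data, left between 1274 and 1531 members. The median GC content of members ranged from 58.7% to 61.7% and the share with new H3K9me2 downstream from 54.2% to 57.5% over their alternatives. The share of centres near a TSS ranged from 54.9%, with protein-coding TSSs alone, to 73.3%. No paired analysis was possible because each group had 1 library. Unknown depth limits all counts, since a list of 88855 regions and one of 11645 may differ in depth as well as in H3K9me2, and this was not tested.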
